A study of Mus musculus with 2 samples.

Results

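Hox genes of the mouse were examined here, 38 of 21887 protein-coding genes in all. They were chosen as protein-coding genes of the RefSeq annotation of mm10 whose symbol is Hoxa, Hoxb, Hoxc or Hoxd followed by a number. The genes described lie in 4 clusters, HoxA with 10 genes on chromosome 6 (52162417 to 52260880, from Hoxa2 to Hoxa13), HoxB with 10 on chromosome 11 (96194316 to 96368254), HoxC with 9 on chromosome 15 (102921131 to 103036856) and HoxD with 9 on chromosome 2 (74668225 to 74765142). Trimethylation of lysine 4 of histone H3 (H3K4me3) had been mapped in neural progenitor cells from adult mice by chromatin immunoprecipitation and sequencing, in 1 H3K4me3 library of 18156769 filtered tags, called against 1 input library of 17831241. Both samples were cells cultured with N2 medium, EGF and bFGF, and neither was treated. The H3K4me3 sample carries the mark "con", which the labels do not explain, and its file header names it after EGF; strain, sex, brain region and genotype are not given in the labels. With 1 library and no replicate, no value below has an error between cultures and no test was possible.

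Hox genes encode homeodomain transcription factors that set position along the axis from head to tail. Within a cluster the genes are numbered by paralog group, from group 1 at the end used earliest and most anteriorly to group 13 at the end used last and most posteriorly. In the embryonic nervous system they are used in the hindbrain and spinal cord, and the forebrain forms without them. H3K4me3 lies over the starts of active genes and also over silent genes held ready for use, where Polycomb proteins place a second, repressive mark. The mark by itself therefore does not tell expression, and neither RNA nor the repressive mark was analysed here.

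H3K4me3 in the Hox clusters was found almost wholly in the low-numbered part of HoxA. A called peak overlapped the gene or the 1 kb on either side of it at 7 of the 10 HoxA genes, Hoxa2 to Hoxa7 and Hoxa9, and at 1 of the 28 genes of the other clusters, Hoxc6. Of all protein-coding genes 61.5% had such a peak, and of the 38 Hox genes 8 did, or 21.1% (exact 95% interval over genes 9.55 to 37.3). Neighbouring genes share peaks, so the genes of a cluster are not independent and the interval is narrower than it should be. From Hoxa2 to Hoxa13 there were 8 peaks with 2188 tags in all, which covered 18.4 kb or 18.7% of this span, against 1.20% of chromosome 6. HoxC had 1 peak of 32 tags that covered 0.645% of the cluster, against 1.42% of chromosome 15. The chromosome shares also take in long stretches far from any gene, so they are not shares for regions as rich in genes as a cluster. HoxB and HoxD had no peak over 174 kb and 96.9 kb. The authors' false discovery rate of these 9 peaks was 0.01% or 0.02% each.

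**Figure D1:**
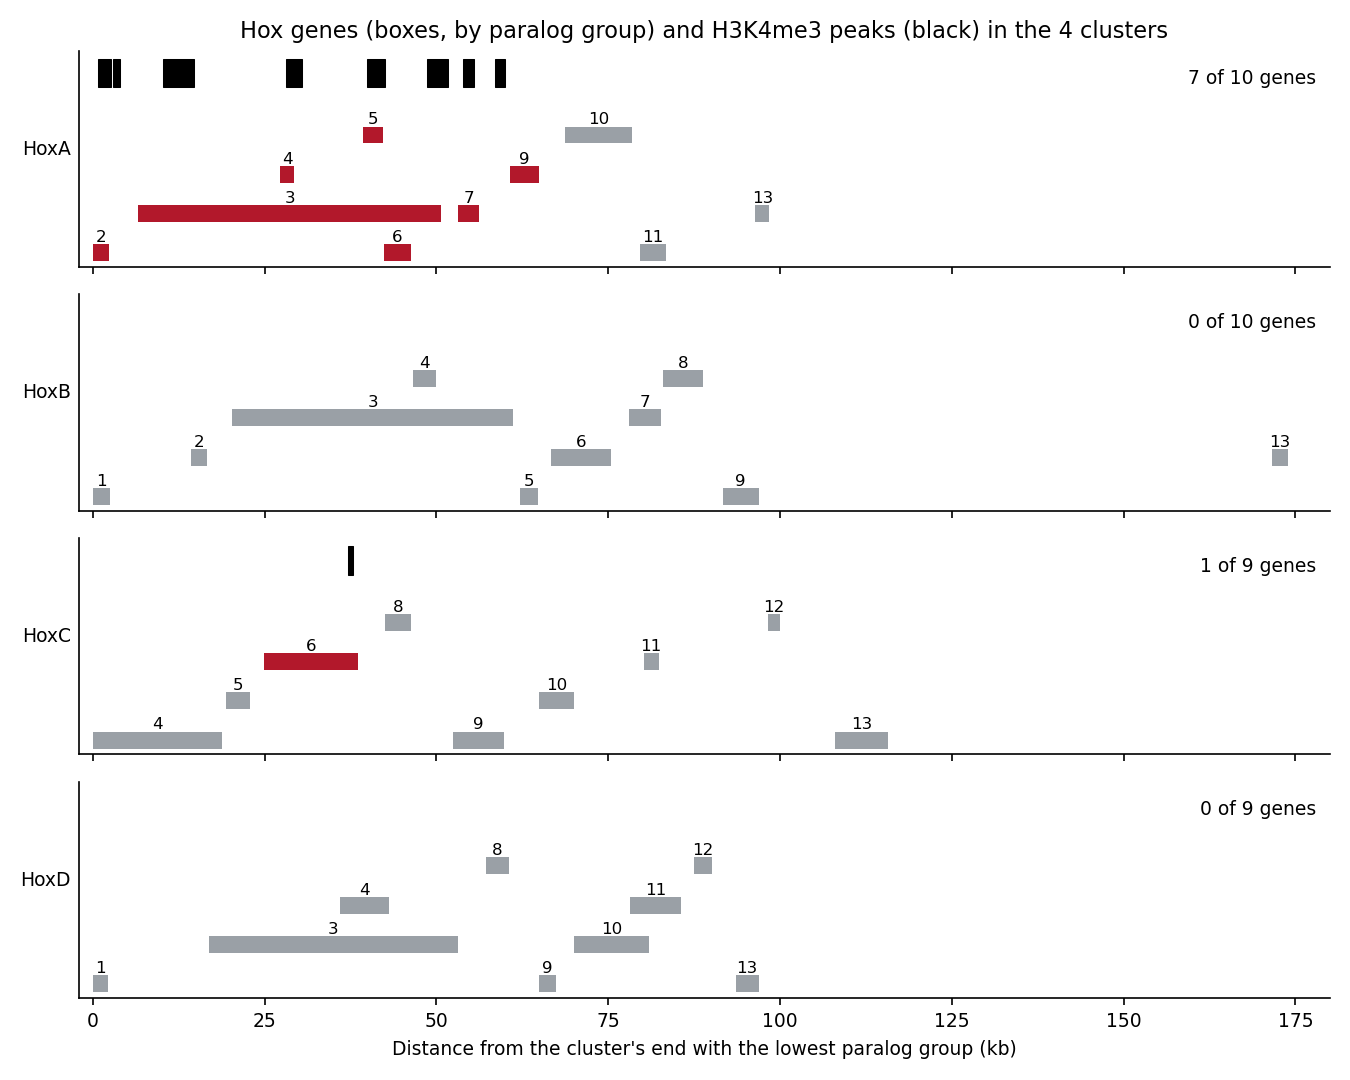
Hox genes (boxes, numbered by paralog group, red with a peak over the gene plus 1 kb and grey without) and H3K4me3 peaks (black) by distance in kb from the end of each cluster with the lowest paralog group drawn. Box rows only separate the labels. Peaks are spread along the left part of HoxA (7 of 10 genes) with spaces between them, 1 lies over Hoxc6, and HoxB and HoxD hold none.

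No gene was skipped from Hoxa2 to Hoxa7 under the rule of 1 kb, but Hoxa6 counted only through 18 bp of the peak of Hoxa5. From the peak over the start of Hoxa2 to the last peak, beside Hoxa9, was 59.2 kb, or 60.1% of the span from Hoxa2 to Hoxa13, and peaks covered 31.1% of it. The rest of the cluster, 38.5 kb from beside Hoxa9 to the end of Hoxa13, held no peak. Fold enrichment over the input, the authors' own value per peak, ran from 7.47 to 43.45 over the 8 peaks with a median of 29.1. Peaks at coding genes in general had a median of 33.0 with quartiles of 14.5 and 43.4. Of the 8 peaks 5 had a fold enrichment of at least 25 and the other 3 were under 12. These 5 all lay above the lower quartile of peaks at coding genes and the 3 weak ones, at Hoxa2 and Hoxa7, below it.

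**Figure D2:**
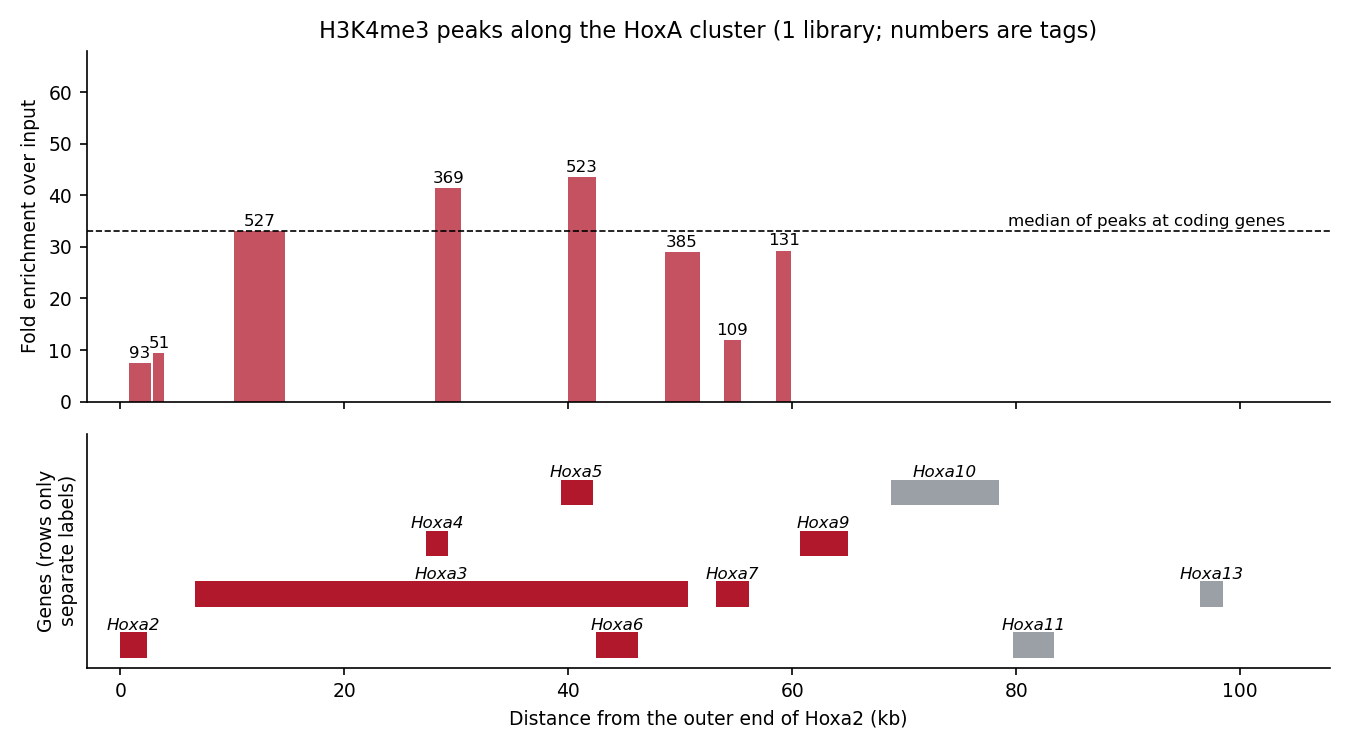
Fold enrichment over the input (upper panel, bar width to scale, tag count above each bar) and genes (lower panel, red with a peak over the gene plus 1 kb) along HoxA by distance in kb from the outer end of Hoxa2. The dashed line is the median of peaks at coding genes (33.0). The highest bar drawn (43.45, 523 tags) lies at Hoxa5, and no bar lies to the right of the one beside Hoxa9.

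A peak near a gene need not lie at its start, so the annotated 5′ ends were examined one by one. All promoter windows listed for a cluster are on the same strand, minus in HoxA and plus in the others, and this strand was used for each gene of the cluster. The 5′ end lay under a peak at 4 of the 38 genes, and these were Hoxa2, Hoxa3, Hoxa4 and Hoxa5, which are neighbours by number. Along the chromosome these ends are not an unbroken run. The 5′ end of Hoxa6, under no peak, lies between those of Hoxa5 and Hoxa3. The same count over all coding genes was not made, since the gene table gives no strand; the nearest measure, promoter windows around listed starts, was under a peak in 55.8% of coding windows. The other 3 marked HoxA genes, Hoxa6, Hoxa7 and Hoxa9, had none over this end. Transcripts that begin within a gene are not seen by this count.

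Hoxa2, which patterns the hindbrain and the second pharyngeal arch, had a weak peak at its start. The peak over its 5′ end (chr6:52163167-52165141) had 93 tags over 1975 bp and a fold enrichment of 7.47, the lowest of the 8. After a space of 232 bp a further peak of 51 tags (chr6:52165374-52166361, fold enrichment 9.4) lay between Hoxa2 and Hoxa3. This further peak covered the end of the antisense RNA gene Hoxaas2 that faces Hoxa2. Both peaks ranked in the lower part of all peaks, above 9.31% and 19.1% of them.

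Hoxa3, a gene of the posterior hindbrain and pharyngeal arches, spans 44.0 kb in this annotation and encloses Hoxa4, Hoxa5 and Hoxa6. It overlapped 4 peaks, of which 2 lay over no other Hox gene. The first of these (chr6:52172600-52177166) lay far inside the gene, held 527 tags over 4567 bp with a fold enrichment of 33.1, and overlapped the listed promoter windows of the non-coding genes Gm15050 and 5730596B20Rik. The other (chr6:52211023-52214143) lay over the distant 5′ end with its summit 53 bp upstream, and had 385 tags at a fold enrichment of 28.93. The long non-coding RNA gene Hoxaas3 overlapped the latter too.

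Hoxa4 and Hoxa5, which act in the posterior hindbrain, neck and lung, each had a strong peak at the start. The peak of Hoxa4 (chr6:52190561-52192875) had 369 tags and a fold enrichment of 41.38, and its summit lay 77 bp downstream of the 5′ end. The peak of Hoxa5 (chr6:52202359-52204875) had 523 tags over 2517 bp and a fold enrichment of 43.45, with the summit 233 bp downstream. At 208 tags per kb the Hoxa5 peak was denser than the Hoxa4 peak at 159.

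Hoxa6, Hoxa7 and Hoxa9, genes of the trunk, counted as marked through peaks away from their starts. The peak of Hoxa5 reached into the far end of Hoxa6 by 18 bp, and the 5′ end of Hoxa6 was 2.35 kb from the nearest peak. Hoxa7 had a weaker peak inside the gene (chr6:52216306-52217857) with 109 tags and a fold enrichment of 11.96, which ended 716 bp short of the 5′ end. The last peak of the cluster (chr6:52220965-52222332) lay in the space between Hoxa7 and Hoxa9 and overlapped neither gene. It had a fold enrichment of 29.26 from 131 tags, and the body of Hoxa9 began 764 bp beyond it. The 5′ end of Hoxa9 was 5.04 kb away from it.

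The HoxA genes without a peak were Hoxa10, Hoxa11 and Hoxa13, which act in the limb, the urogenital tract and the hindmost trunk. Hoxa10 was 8.86 kb from the nearest peak, Hoxa11 19.8 kb and Hoxa13 36.5 kb. The rule of 1 kb thus split Hoxa9, at 764 bp, from Hoxa10, at 8.86 kb, with no HoxA gene between these distances.

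Hoxc6, a gene of the thoracic trunk, was the sole marked gene outside HoxA, and its peak was weak. The peak (chr15:102998969-102999714) had 32 tags over 746 bp and a fold enrichment of 9.4, above 19.1% of all peaks. It began 743 bp inside the gene, so the annotated 5′ end was not covered. The fewest tags in any peak of the list were 13. The 8 unmarked HoxC genes were Hoxc4, Hoxc5, Hoxc8, Hoxc9, Hoxc10, Hoxc11, Hoxc12 and Hoxc13, of which Hoxc8 lay nearest to the peak at 4.69 kb.

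HoxB (Hoxb1 to Hoxb9 and Hoxb13) and HoxD (Hoxd1, Hoxd3, Hoxd4 and Hoxd8 to Hoxd13) had no called peak over any gene or between genes. The counts were 0 of 10 genes in HoxB (exact 95% interval 0 to 30.8%) and 0 of 9 in HoxD (0 to 33.6%). The nearest peak to HoxB was 118 kb away, beyond Hoxb13, and on the side of Hoxb1 it was 395 kb away. The median space between neighbouring peaks of chromosome 11 was 26.6 kb. HoxD had its nearest peak 60.0 kb beyond Hoxd1 and 88.4 kb beyond Hoxd13, where the median space on chromosome 2 was 40.7 kb. These medians are over all spaces between peaks, which is a different measure from the distance of a cluster to its nearest peak. Such distances are not given for other genes. The list holds called peaks only, and the reads over these genes were not examined.

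Ordered by paralog group, the marked genes described were those of groups 2 to 7 and 9. Each of these groups had 1 marked gene, the HoxA member, except group 6, where Hoxa6 and Hoxc6 both counted. Thus Hoxa4 had a peak and Hoxb4, Hoxc4 and Hoxd4 had none. Hoxa6 and Hoxc6 counted through peaks that did not cover their 5′ ends. Of the marked genes, only Hoxa2, Hoxa3, Hoxa4 and Hoxa5 had that end under a peak. In groups 8, 10, 11, 12 and 13 no gene of any cluster had a peak; HoxA has no gene of groups 8 and 12.

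Of the 28 spaces between neighbouring Hox genes that do not overlap, 3 held part of a peak, all in HoxA. They were the spaces from Hoxa2 to Hoxa3 (30.7% covered), Hoxa3 to Hoxa7 (42.1%) and Hoxa7 to Hoxa9 (30.2%). Only 2 of the 9 peaks lay wholly between Hox genes, the one at Hoxaas2 and the one between Hoxa7 and Hoxa9. The next space, from Hoxa9 to Hoxa10, held none.

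The marked non-coding genes lay at the same peaks as the marked Hox genes. Of 23 long non-coding RNA genes within these spans 7 had a peak over the gene plus 1 kb, 6 of 9 in HoxA and 1 of 4 in HoxC, against 23.9% of all long non-coding RNA genes. In HoxA these were Hoxaas2, Gm15050, LOC115490409, 5730596B20Rik, Hoxaas3 and Mira, all in the marked part. Those in the unmarked part, Gm52902, LOC115490410 and Hoxa11os, had none. In HoxC, Gm29905 lay 801 bp from the weak peak of Hoxc6. Hotair in HoxC, and Haglr and Hoxd3os1 in HoxD, had none. Most marked ones overlap a Hox gene, so their peaks are not separate observations.

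The 6 microRNA genes in the clusters had no peak within 1 kb, against 15.9% of all microRNA genes with one. The mir-10 and mir-196 genes are known repressors of Hox messages, and the mature strands from RefSeq (GRCm38.p6) are shown with the seed, bases 2 to 8, in capitals, to show which loci give like products.
mmu-miR-10a-5p: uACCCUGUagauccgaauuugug
mmu-miR-10b-5p: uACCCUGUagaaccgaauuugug
mmu-miR-196a-5p: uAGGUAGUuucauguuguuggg
mmu-miR-196b-5p: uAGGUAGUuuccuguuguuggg
The members of each pair share their seed. Mir10a lies in HoxB, Mir10b in HoxD, Mir196b between Hoxa9 and Hoxa10, and the mir-196a product comes from Mir196a-1 in HoxB and Mir196a-2 in HoxC. Mir196b, at 7.75 kb from the last HoxA peak, was the nearest of them to a peak. Mir615, inside Hoxc5, was 15.2 kb from one. A microRNA can be cut from a longer transcript that starts elsewhere, which these windows do not see.

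The sequence at the starts was then set beside the mark. RefSeq promoter windows (GRCm38.p6, 250 bases before to 50 after a start) matched 22 of the 38 Hox genes, with 24 windows; 16 genes had no window in the table, Hoxa4 among them. Peaks overlapped 3 of the 24 windows, those of Hoxa2, Hoxa3 and Hoxa5, or 12.5%, against 55.8% of all coding promoter windows. Shown are the 250 bases before the start at these 3 genes and at 3 unmarked starts: Hoxa6, the next gene after Hoxa5; Hoxa13, the CG-richest; and Hoxd1, from a cluster with no peak. CG dinucleotides are in capitals, and each run reads 5′ to 3′ on the strand of the gene.
Hoxa2, chr6:52164832-52165081, minus strand: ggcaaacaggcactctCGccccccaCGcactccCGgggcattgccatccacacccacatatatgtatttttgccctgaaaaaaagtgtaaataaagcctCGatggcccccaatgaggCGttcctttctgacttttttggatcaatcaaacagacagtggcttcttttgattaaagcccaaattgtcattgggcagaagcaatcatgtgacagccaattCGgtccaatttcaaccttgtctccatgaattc
Hoxa3, chr6:52213068-52213317, minus strand: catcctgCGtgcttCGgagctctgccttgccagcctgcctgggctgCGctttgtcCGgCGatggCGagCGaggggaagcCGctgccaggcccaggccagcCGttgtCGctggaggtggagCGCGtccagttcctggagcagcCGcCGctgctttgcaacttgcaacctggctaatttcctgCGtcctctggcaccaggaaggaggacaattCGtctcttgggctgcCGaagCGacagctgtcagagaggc
Hoxa5, chr6:52204588-52204837, minus strand: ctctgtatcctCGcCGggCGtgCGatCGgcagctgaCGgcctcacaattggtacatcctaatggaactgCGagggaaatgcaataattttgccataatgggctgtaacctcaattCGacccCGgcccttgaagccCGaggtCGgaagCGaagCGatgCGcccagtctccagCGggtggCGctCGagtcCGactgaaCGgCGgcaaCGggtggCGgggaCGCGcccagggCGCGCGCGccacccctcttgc
Hoxa6, chr6:52208673-52208922, minus strand: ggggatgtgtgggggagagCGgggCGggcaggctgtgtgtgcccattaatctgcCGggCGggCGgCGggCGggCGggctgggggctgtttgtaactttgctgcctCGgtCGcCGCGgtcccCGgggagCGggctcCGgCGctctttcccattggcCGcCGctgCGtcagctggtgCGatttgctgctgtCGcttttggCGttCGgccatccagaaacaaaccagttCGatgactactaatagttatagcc
Hoxa13, chr6:52260881-52261130, minus strand: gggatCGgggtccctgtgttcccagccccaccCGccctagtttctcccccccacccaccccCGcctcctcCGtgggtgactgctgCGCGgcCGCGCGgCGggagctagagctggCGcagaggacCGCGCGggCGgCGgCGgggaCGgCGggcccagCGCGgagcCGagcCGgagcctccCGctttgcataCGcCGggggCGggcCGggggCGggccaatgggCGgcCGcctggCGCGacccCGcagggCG
Hoxd1, chr2:74762730-74762979, plus strand: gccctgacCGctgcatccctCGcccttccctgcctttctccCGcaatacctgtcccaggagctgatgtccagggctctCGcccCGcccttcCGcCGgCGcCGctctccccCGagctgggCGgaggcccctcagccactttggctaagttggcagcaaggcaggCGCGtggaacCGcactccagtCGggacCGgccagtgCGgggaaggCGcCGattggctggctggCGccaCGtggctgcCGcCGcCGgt
The printed bases hold 6 CG at Hoxa2, 18 at Hoxa3 and 28 at Hoxa5, which had peaks, and 24 at Hoxa6, 35 at Hoxa13 and 24 at Hoxd1, which had none.

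CG-rich promoters carry H3K4me3 in most cell types, and this held for the library as a whole. Windows with 20 or more CG in their 300 bases were under a peak in 93.4% of 7630 other coding promoters, and those with 0 to 4 CG in 5.42% of 6032. The Hox windows were mostly those of HoxA and HoxD, with 10 each, against 3 of HoxB and 1 of HoxC. Of the 16 genes without a window 8 were of HoxC, 7 of HoxB and 1 of HoxA, so the CG content of HoxB and HoxC starts is largely not covered here. The median of the 24 windows was 14.5 CG, from 4 to 45, against 13 in other coding promoters. By cluster it was 17.5 in HoxA, 13 in HoxB and 20 in HoxD, and the HoxC window had 9. Of 17 Hox windows with 10 or more CG, 2 were under a peak, where 87.8% of all coding windows of this kind were. Of the 11 with 20 or more, 2 were under a peak, and 9 were not. The CG-rich windows without a peak included Hoxa13 (45 CG), Hoxd13 (37), Hoxd1 (29) and Hoxa6 (26). In the other direction, the window of Hoxa2 had 9 CG and lay under a peak, the weak one.

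**Figure D3:**
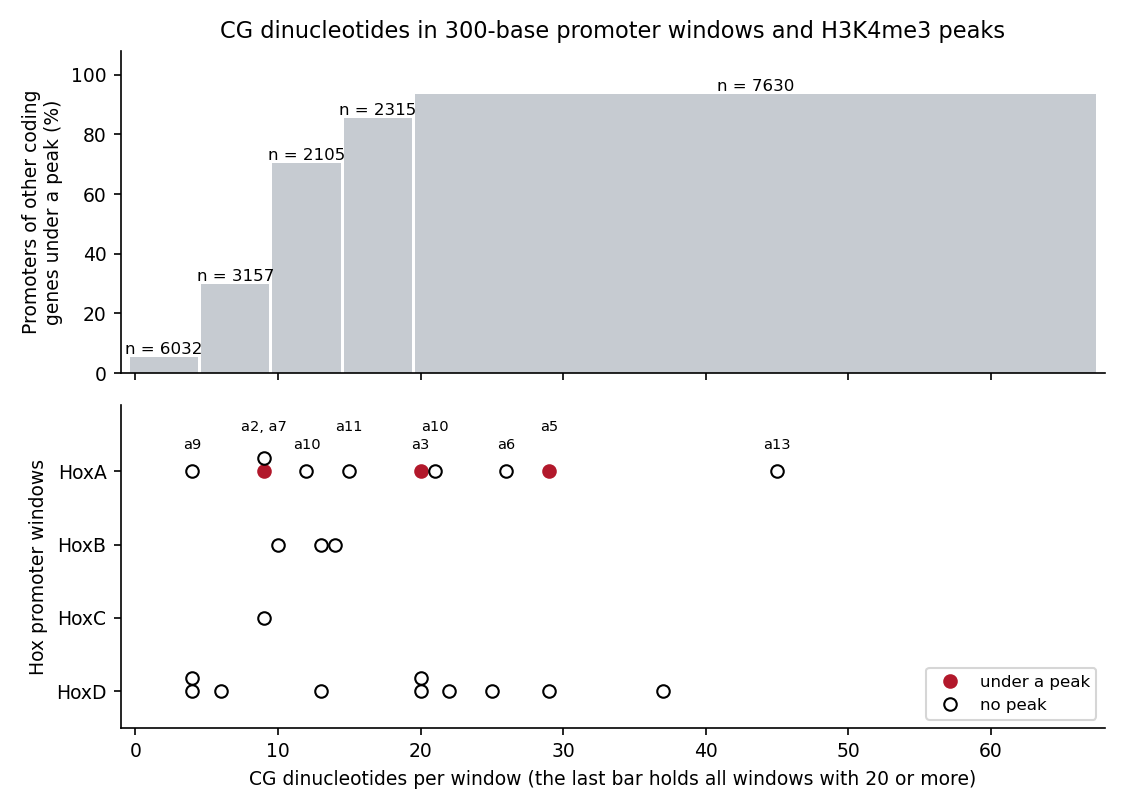
Upper panel: percent of promoter windows of other coding genes under an H3K4me3 peak, by CG dinucleotides per window, with the number of windows. Lower panel: each Hox window by cluster, filled when under a peak, with HoxA genes named. The share rises from 5.42% to 93.4% in other genes, while 9 of the 11 Hox windows with 20 or more CG are open circles.

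The windows were also searched on both strands for TGACAG, the letters that MEIS proteins prefer, and TGATNNAT, a form bound by pairs of PBX and Hox proteins. TGACAG was in 2 of the 24 Hox windows (Hoxa2 and Hoxa3) and in 18.7% of other coding windows. TGATNNAT was in 4 Hox windows (Hoxa2, Hoxb1, Hoxb8 and 1 of 2 of Hoxd11) and in 7.44% of the others. The motifs overlapped in none of the Hox windows. These are matches of letters, not sites.

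Of the 24 coding genes nearest to the clusters, 3 on each side, 19 had a peak, where 61.5% of all coding genes did, with highest fold enrichments from 11.57 at Gm50595 to 58.62 at Tax1bp1. Around HoxA these were Skap2, Snx10, Cbx3, Hibadh and Tax1bp1. Around HoxB, Atp5g1, Snx11 and Cbx1 had a peak, and around HoxC, Calcoco1, Atp5g2, Atf7, Smug1, Cbx5 and Hnrnpa1 did. Around HoxD, Lnpk, Atp5g3, Mtx2, Gm50595 and Hnrnpa3 had one. The most enriched peak of Cbx5 and of Hnrnpa1 had the same values (45.57, 682 tags), so the 19 are not all separate. The 5 without were Evx1 and Evx2, homeobox genes at the outer ends of HoxA and HoxD, and Ttll6, Calcoco2 and Skap1 beside HoxB. Lnpk and Mtx2, known neighbours of HoxD that do not encode Hox proteins, had fold enrichments of 31.82 and 49.9.

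Genes for proteins that work with or on Hox genes were counted next. All 9 TALE homeobox genes (Meis, Pbx and Pknox), whose products bind DNA beside Hox proteins, had a peak, with the highest fold enrichment at Pknox1 (46.3) and Pbx3 (46.0). All 12 genes of a list of factors that keep Hox genes active had one, led by Dpy30 (56.0) and Kmt2a (54.2). The list holds members of MLL-type H3K4 methyltransferase complexes, H3K27 demethylases, Ash1l and Dot1l, which methylate other histone lysines, and the chromatin reader Psip1. All 24 Polycomb genes, whose products keep Hox genes silent, had a peak, with high values at Phc3 (54.2) and Pcgf2 (53.5). All 9 genes for CTCF, MAZ and cohesin, which act at boundaries inside the clusters, had one, led by Maz (51.35) and Smc3 (50.3). Most of these genes are used in nearly all cells, and coding genes in general had a peak in 61.5%.

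Upstream signals and related homeobox genes were read against the same 61.5% of coding genes. Of 14 genes for retinoic acid receptors, enzymes and binding proteins 11 had a peak, with Rara (43.4) and Rxra (38.2) highest, and Crabp2, Aldh1a2 and Aldh1a1 without. Of 5 early regulators of Hox expression 4 had one, with Gdf11 at 44.7 and Egr2 at 36.2, while T had none. ParaHox and Evx genes, the nearest relatives of Hox genes, had a peak in 1 of 8, a weaker one at Gsx1 (15.2) whose summit lay outside the gene plus 1 kb, so that the count was 0 with the summit required in this window; the 7 without included Evx2, Gsx2, Pdx1, Cdx2 and Evx1. Of 20 other genes of the Antp class 12 had one, or 60.0%, near the share of all coding genes, led by Nkx2-2 (47.7) and Emx2 (39.8), and the 8 without included Mnx1, Nkx6-1, Nkx6-2, Meox1 and Meox2.

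**Figure D4:**
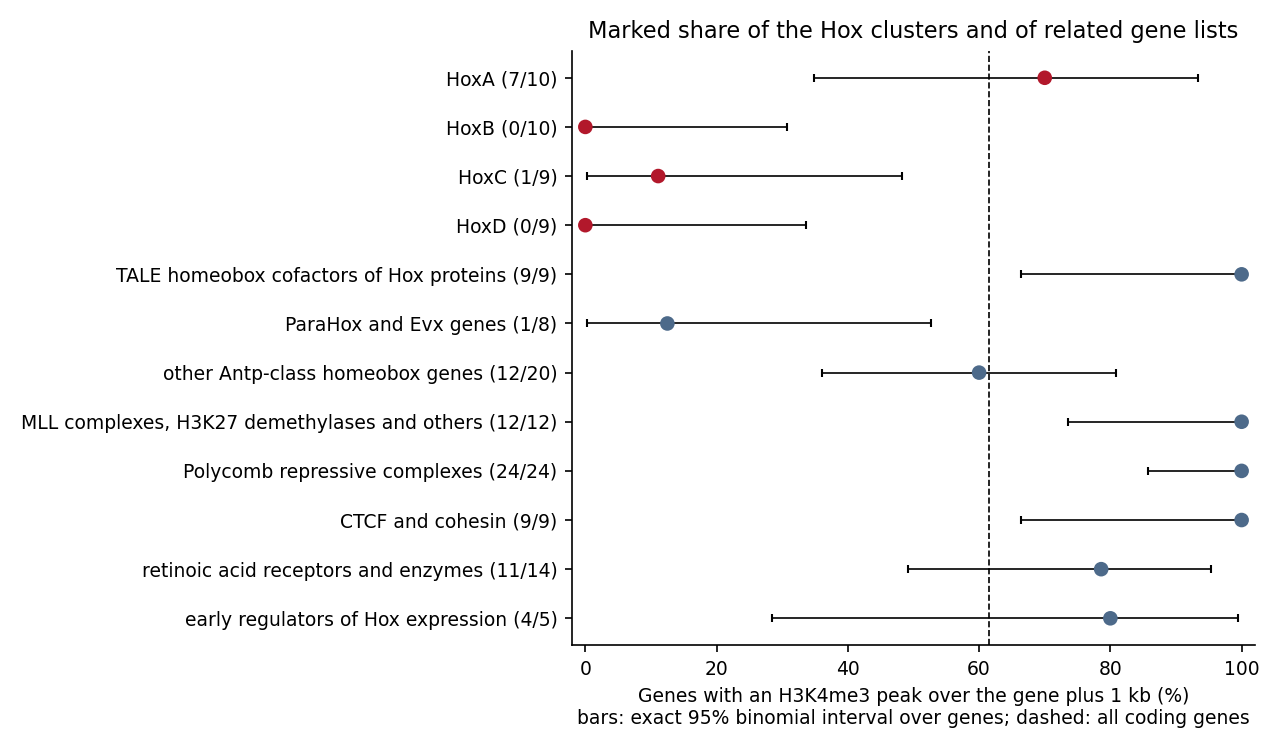
Percent of genes with an H3K4me3 peak over the gene plus 1 kb (points) in each Hox cluster (red) and each related list (blue), with exact 95% binomial intervals over genes as bars and the share of all coding genes (61.5%) as a dashed line. HoxB, HoxC, HoxD and the ParaHox and Evx genes lie to the left of the line, and HoxA overlaps it.

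Markers of position and of other cell types were counted beside these, since Hox genes are also used in mesenchyme and blood; the share of all coding genes with a peak was 61.5%. Of a list of 10 forebrain and general progenitor factors 9 had a peak, with Sox2 (49.2) and Six3 (45.6) highest. The progenitor filament gene Nes had 44.8, and Otx2 had no peak. Sox2 and Nes belong to neural progenitors in general, so their peaks do not tell position. Of 12 hindbrain and spinal cord factors outside the clusters 10 had a peak, with Egr2 (36.2) and Gbx2 (32.55) high and Pax8 and Mnx1 without. Over the members with a peak alone, the median of the highest fold enrichments was 40.9 in the forebrain list, Sox2 and Nes included. It was 10.5 in the hindbrain and spinal cord list. Of 10 fibroblast and mesenchyme markers 4 had a peak, led by Prrx1 (47.6) and Col1a1 (37.6), and the 6 without included Col3a1, Col1a2, Tbx18, Dcn and Lum. Of 8 endothelial markers 5 had one, or 62.5%, near that share, and 3 with a score of at least 100; Flt1 (42.7) and Kdr (13.3) were highest and Tie1, Cdh5 and Cldn5 without. Of 9 macrophage and blood markers 3 had one, Spi1 (26.8) and Ptprc (17.4) highest, and the 6 without included Hbb-bs, Itgam, Cx3cr1, Aif1 and Csf1r. The part of other cell types in the HoxA peaks was not tested.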

How the data were processed

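The data were 1 H3K4me3 library and 1 input library, with no replicates, and the deposited file is the peak list of the former. Peaks were called with MACS 1.4.2 at a p cutoff of 1e-05, keeping 1 tag per position, per the file headers; the submitters' processing notes name MACS2 2.1.0 and mm10. No source used here names the aligner. Per the file headers, each peak has a tag count (not normalized), a score (-log10 of p, multiplied by 10), a percent false discovery rate, and the ratio to the input, called fold enrichment; these are the authors' values and were used to describe, rank or filter peaks.

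Peaks were joined to the RefSeq table of GRCm38.p6, chromosomes 1 to 19, X and Y, by an overlap of at least 1 bp with the gene plus 1 kb (Python 3.11.15, pandas, SciPy). The overlap code was tested on simulated data. Intervals are exact Clopper-Pearson intervals over genes and hold counting error over genes alone. They hold no error between cultures and treat genes as independent, which neighbours that share peaks are not. Tags come from amplified reads that lack molecular identifiers and need not be separate molecules. Covered shares of a chromosome refer to the span between its outermost genes or peaks. The Hox genes described were named, with the 3 nearest coding genes on each side and, of each list, the 2 members with the highest fold enrichment and up to 5 without a peak (Nes beside these). A few genes of the clusters and lists, with the peak at 1 of them, are not reported here and are in no count of members. Members and lists were chosen with earlier results of these data known, and the motifs and the printed sequences after seeing the values. Alternatives were other windows, a score of at least 100, a fold enrichment of at least 10, and the summit in place of the overlap.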

Additional observations from a re-analysis of the deposited data

How the results depend on the processing

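The count of marked Hox genes was 8 of 38 with the window of 1 kb, with 2.5 kb, with a score of at least 100 and around gene ends only, and 7 with the gene body alone, with the summit in the window and with a fold enrichment of at least 10. Hoxa9 left the count with the gene body and the summit, and Hoxc6 with the fold enrichment, which left 0 marked HoxC genes and 0% of HoxC covered. HoxB and HoxD had 0 under each of these settings. The covered share of HoxA was 15.7% with a fold enrichment of at least 10, and that of HoxC was 0.593% with 5 kb added on either side, which was not run for HoxA. Of the related lists, the endothelial count fell to 3 with a score of at least 100, and the ParaHox and Evx count to 0 with the summit in the window. The other alternatives kept their count within 1.5 times. Depth limits what an unmarked gene can mean: the list holds called peaks only. No paired analysis was possible because the H3K4me3 and input groups have 1 sample each and the result comes from no test.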
